A study of Mus musculus with 11 samples.

Results

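Horizontal basal cells of the olfactory epithelium are followed here through 8 of their marker genes: the basal keratins Krt5, Krt14, Krt15 and Krt17, the transcription factor gene Trp63 (p63), the integrin gene Itga6, the growth factor receptor gene Egfr and the adhesion molecule gene Icam1. Every probe set that the array annotation mapped to exactly 1 of these symbols was taken, which gave 21 of the 45101 probe sets and all 8 genes. Of the 21, 16 reached a mean signal of 20 over the arrays and were tested, and 5 did not. RNA came from whole main olfactory epithelium (MOE), the nasal lining in which the olfactory sensory neurons (OSNs) sit, dissected from BALB/c mice at postnatal day 0. Arrays of 6 Bcl11b knockout (KO) preparations, 4 from males and 2 from females (KO 3 and KO 6), were compared with arrays of 5 wild type (WT) preparations, all from males. Bcl11b is a zinc finger transcription factor made by OSNs. The KO is a conventional one, so the gene was inactivated in every tissue of the animal and not in OSNs alone, and the MOE was neither sorted nor divided into zones. The labels give no litter or day of dissection, so the p-values measure the spread between these preparations.

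Horizontal basal cells are flat cells that lie on the basal lamina below the globose basal cells, the OSNs and the sustentacular cells. In the adult they are mostly quiescent and act as a reserve stem cell that is drawn on after injury, and loss of p63 is the step that releases them. They settle on the basal lamina around birth in the mouse. Their keratins form the filament network that is anchored to the lamina through hemidesmosomes, in which integrin alpha 6 pairs with integrin beta 4. The same keratins and p63 also mark the basal cells of respiratory epithelium, glands and squamous epithelium, which a whole-tissue dissection can include.

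Krt5 is a textbook p63 target, and the bases before its start are shown because they hold a copy of the motif that the p53 family of factors, p63 included, recognizes. The 250 bases upstream of the annotated start of Krt5 lie at chr15:101712906-101713155 on the minus strand of GRCm38.p6 (RefSeq), and the capitals mark the p53 family decamer motif, which begins at position -95 from the start.
Krt5 upstream region: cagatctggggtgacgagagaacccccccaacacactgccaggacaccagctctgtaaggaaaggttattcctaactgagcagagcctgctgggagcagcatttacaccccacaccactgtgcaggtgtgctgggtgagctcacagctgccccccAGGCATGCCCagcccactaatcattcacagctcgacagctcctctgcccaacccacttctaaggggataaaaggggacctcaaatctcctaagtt
Promoter windows of 300 bases (250 before and 50 after the start) were found for 4 of the 8 genes (Krt5, Krt14, Icam1 and Egfr), and of these only the Krt5 window held the motif on either strand, against 8.36% of 32851 mouse promoter windows. The AP-1 letters TGANTCA (7.81% of all windows) were in none of the 4, and the TATA box letters TATAAA (13.6% of all windows) were in the Icam1 window only. The GC box letters GGGCGG (35.7% of all windows) were in the Icam1 and Egfr windows. A decamer motif of NF-kappaB (8.46% of all windows) was in the Krt14 window only. Such matches describe the letters and do not show binding.

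Signals are linear intensities that were scaled on every array to the same GAPDH value, and changes are KO minus WT on the log2(signal + 16) scale, estimated with limma and adjusted over all 33662 tested probe sets. All 4 Bcl11b probe sets fell in the KO, with signals of 560.5 to 1250 on the KO arrays and 2694 to 4123 on the WT arrays for the brightest (1435227_at; log2 change -1.88 ± 0.17, SE; limma, adjusted p = 1.2e-05), so no array went against its label. Median signals per array were 62.0 to 86.5 in KO and 56.6 to 85.7 in WT. The 3'/5' ratio of GAPDH, which rises as RNA degrades or amplification shortens, was 1.82 to 2.70 in KO and 1.88 to 2.27 in WT, and KO 3 (2.70) and KO 2 (2.42) were the highest. The labelled tissue was borne out by its defining markers: the mature OSN gene Omp had mean signals of 393 in KO and 586 in WT, and the sustentacular gene Cyp2g1 had 5527 in KO and 5962 in WT. Arrays also fell into 2 sets by the signal of spiked poly-A control RNAs, higher on KO 4, KO 5, KO 6, WT 1 and WT 2 and lower on the other 6, and values within these sets are given where they bear on a result.

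None of the 16 tested horizontal basal cell probe sets passed the threshold of an adjusted p under 0.05 (limma), in a comparison that called 0.455% of all probe sets (0.244% higher and 0.211% lower in KO). At an unadjusted p under 0.05 there were 3 of the 16, on Krt15, Krt17 and a dim Egfr probe set, against 6.92% of all probe sets. All 3 had lower means in KO. On 1 of the 16, for Krt15, the KO and WT arrays did not overlap, which held for 1.29% of all probe sets. The median log2 change of the 16 was 0.02, with 9 positive and 7 negative, beside a median of 0.05 over all tested probe sets. Of all 33662 tested probe sets 20343 had positive estimates and 13319 negative ones. In whole tissue, fewer cells of a type and less RNA per cell cannot be told apart, and this holds for every value that follows.

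**Figure D1:**
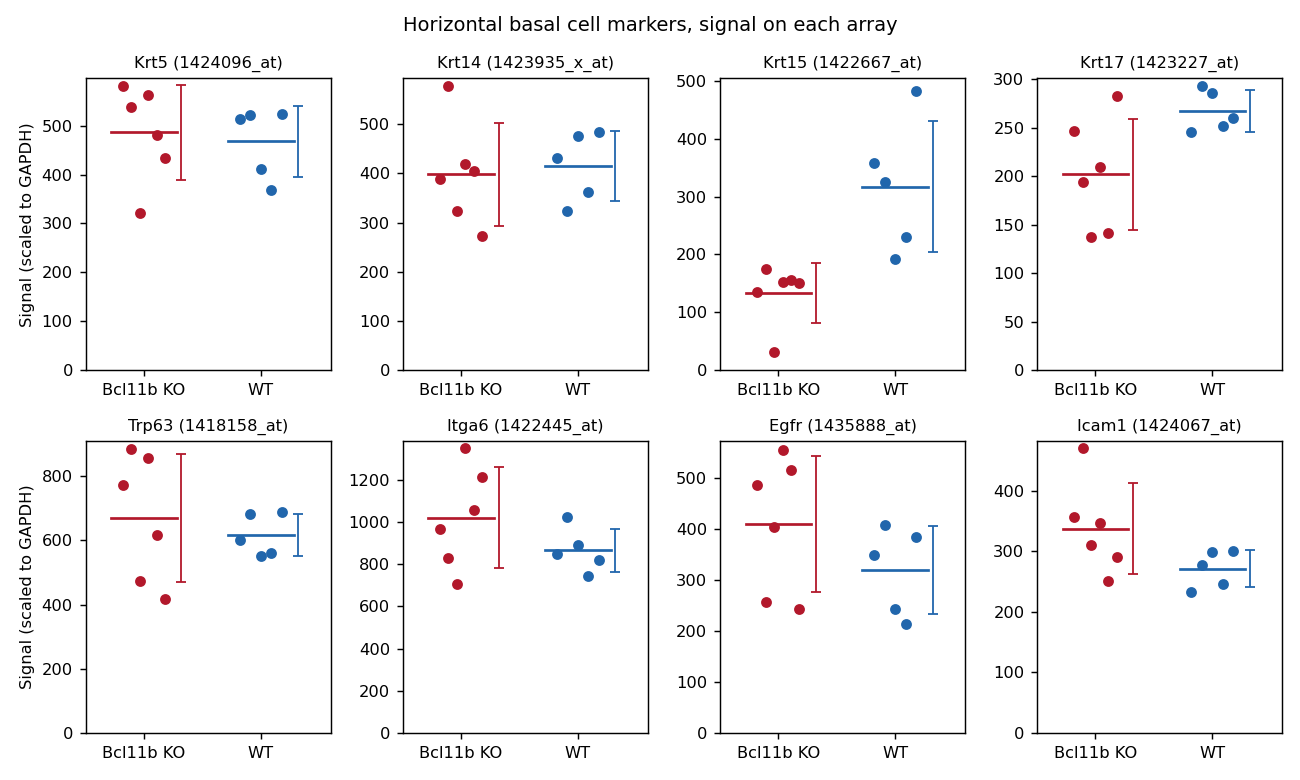
Signal (linear, scaled to GAPDH) on each of the 6 Bcl11b KO arrays (red) and 5 WT arrays (blue) for the brightest probe set of each of the 8 genes; points are arrays, horizontal bars group means and vertical bars ± 1 SD. The KO and WT points separate for Krt15 only (30.6 to 175 in KO, 192 to 481.5 in WT), and the KO points of Trp63 spread more widely (417 to 886) than the WT points (552 to 687).

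Krt5 and Krt14 are the type II and type I keratins that pair into the filaments of basal cells. The Krt5 probe set (1424096_at) ranged over the KO arrays from 321 to 580.5 with a median of 509.0, and read 514, 522, 410.5, 369 and 524 on WT 1 to WT 5. The groups overlapped on both sides: KO 3 was below every WT array, and KO 1, KO 2 and KO 4 were above every WT array. Means were 486 ± 97.4 in KO (SD, n = 6) and 468 ± 72.9 in WT (SD, n = 5). The log2 change was 0.04 ± 0.17 (SE; 95% interval -0.31 to 0.39; limma, adjusted p = 0.99). The sign depended on the setting: the change was -0.02 with each array scaled on its median and -0.13 with scaling on spiked hybridization controls, but 0.21 with males only (limma, adjusted p = 0.69). Both KO females were below the KO mean.

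The brighter Krt14 probe set (1423935_x_at, whose suffix marks probes that can also match related transcripts) ranged from 273 to 578 in KO, with a median of 397, and read 431, 324, 476, 361 and 484 on WT 1 to WT 5. KO 2 was above and KO 6 below every WT array, and the other 4 lay within the WT range. Means were 398 ± 104 in KO (SD, n = 6) and 415 ± 70.5 in WT (SD, n = 5). The log2 change was -0.08 ± 0.18 (SE; limma, adjusted p = 0.99; 95% interval -0.45 to 0.30). The second probe set (1460347_at) gave the same estimate to 2 decimals, -0.08 ± 0.20, from KO arrays between 143 and 316 and WT arrays between 177 and 301. Both Krt14 estimates were 0.10 with males only. A further probe set (1455573_at) stayed at a mean of 19.5, under the filter.

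Krt15 is a type I keratin that marks basal cells of stratified epithelia and the stem cells of the hair follicle bulge. Its probe set (1422667_at) read 135.0, 175, 30.6, 153, 156.5 and 149.9 on KO 1 to KO 6. On WT 1 to WT 5 it read 358, 324, 192, 230.2 and 481.5. Every KO array was below every WT array, KO 3 was far below the other KO arrays, and the nearest arrays of the groups were KO 2 and WT 3. Means were 133 ± 52.0 in KO (SD, n = 6) and 317 ± 114 in WT (SD, n = 5), so the KO mean was 42.0% of the WT mean. The log2 change was -1.22 ± 0.32 (SE; 95% interval -1.88 to -0.55). This was the 303rd smallest p among 33662 probe sets (limma, unadjusted p = 0.0012), and it did not pass adjustment (limma, adjusted p = 0.13).

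The estimate for Krt15 was negative in all 27 alternative settings, from -1.41 to -0.90, while the call varied. Because the groups did not overlap, settings that only leave out arrays could not change the sign. Krt15 passed the threshold in 3 of the 27. These included scaling on spiked hybridization controls (-1.38, limma, adjusted p = 0.031) and array weights (-1.15, limma, adjusted p = 0.041). The other was the replicate number as a block (-1.27, limma, adjusted p = 0.022). Replicate numbers did not pair the arrays, so this block is arbitrary. Its estimate equals that without KO 6, which has no WT array of the same number. The change without KO 6 and without a block was -1.27 (limma, adjusted p = 0.18). Without KO 3, which is from a female and had the highest GAPDH 3'/5' ratio, the change was -0.91 (limma, adjusted p = 0.064). With males only it was -0.90 (limma, adjusted p = 0.12). Within the arrays of higher poly-A signal it was -1.08 (limma, adjusted p = 0.11), and within those of lower poly-A signal -1.41 (limma, adjusted p = 0.60).

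Because Krt15 and Krt5 were read from the same RNA, their log2(signal + 16) values can be subtracted on each array. This largely removes a factor that scales the whole array. The removal is incomplete because of the added 16, mostly for dim values such as Krt15 on KO 3. The difference of Krt15 minus Krt5 was -2.85 to -1.44 on the KO arrays, with a mean of -1.85 ± 0.53 (SD, n = 6). On the WT arrays it was -1.03 to -0.12, with a mean of -0.59 ± 0.33 (SD, n = 5). The group means differed by -1.26, which is the Krt15 change less the Krt5 change. The ranges did not overlap, but those of Krt15 alone did not either, so this restates the Krt15 result and is not separate support. The difference of Krt15 minus Krt14 moved by -1.14 between the group means, with overlapping ranges (-2.87 to -0.80 in KO and -1.24 to 0.00 in WT). For Trp63 minus Krt5 the group means differed by 0.03, and for Krt14 minus Krt5 by -0.12. For Krt17 minus Krt5 they differed by -0.46 and for Krt17 minus Krt14 by -0.34, both with overlapping ranges. These subtractions are descriptions with no test, and single values have no meaning as levels because probe sets differ in brightness.

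Krt17 is a type I keratin of basal and myoepithelial cells and of hair follicles that is also induced on injury. Its brighter probe set (1423227_at) ranged from 137.5 to 282 in KO, with a median of 202, and read 245, 293, 286, 251 and 259.6 on WT 1 to WT 5. KO 2, KO 3, KO 4 and KO 5 were below every WT array, whereas KO 1 and KO 6 lay within the WT range. Means were 202 ± 57.3 in KO (SD, n = 6) and 267 ± 21.2 in WT (SD, n = 5). The log2 change was -0.42 ± 0.18 (SE; limma, unadjusted p = 0.033, adjusted p = 0.63), and it was negative in all 27 alternatives (-0.58 to -0.30), none of which called it. The other Krt17 probe set (1420193_at) had a mean of 15.7, under the filter. A probe set annotated to both Krt17 and Krt14 (1427841_at) had a mean of 6.55 and was not assigned to either.

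Trp63 encodes p63, the transcription factor that keeps horizontal basal cells in reserve and drives basal keratin genes. Its brightest probe set (1418158_at) ranged from 417 to 886 in KO, with a median of 694, and read 603, 682, 552, 561 and 687 on WT 1 to WT 5. KO 1, KO 2 and KO 4 were above every WT array and KO 3 and KO 6 below every WT array, so only KO 5 lay within the WT range. Means were 670.5 ± 199 in KO (SD, n = 6) and 617 ± 64.7 in WT (SD, n = 5). The log2 change was 0.07 ± 0.19 (SE; limma, adjusted p = 0.99; 95% interval -0.33 to 0.46). The 2 low arrays are those of the KO females, and with males only the change was 0.33 (limma, adjusted p = 0.45). With only 2 KO females and no WT female, sex cannot be told apart from these preparations. The change was -0.10 with scaling on spiked hybridization controls. A dim Trp63 probe set (1459581_at) had means of 27.1 in KO and 24.8 in WT with a log2 change of 0.08 ± 0.23 (SE), and 2 others (1451876_a_at and 1452027_a_at) had means of 13.4 and 7.65 over all arrays, under the filter.

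Itga6 encodes integrin alpha 6, the laminin receptor subunit at the base of these cells, which endothelium and other epithelia also make. On 1422445_at the KO arrays ranged from 707 to 1352 with a median of 1012, and WT 1 to WT 5 read 850.0, 1023, 893.5, 744 and 819. KO 4, KO 5 and KO 6 were above every WT array and KO 3 below every WT array. Means were 1021 ± 240 in KO (SD, n = 6) and 866 ± 103 in WT (SD, n = 5). On the log2 scale this was 0.21 ± 0.16 (SE; limma, adjusted p = 0.93). The second probe set (1422444_at) had means of 372 in KO and 306 in WT and a change of 0.25 ± 0.17 (SE; limma, adjusted p = 0.91). Both estimates were positive in all 27 alternatives, from 0.02 to 0.40 on the brighter probe set, and neither was called in any of them.

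Icam1 encodes an immunoglobulin-type adhesion molecule that is used to purify horizontal basal cells and is also made by endothelium and leukocytes. Its probe set (1424067_at) ranged from 250.3 to 469.9 in KO, with a median of 329, and read 233, 277, 299, 246.5 and 301 on WT 1 to WT 5. KO 1 to KO 4 were above every WT array, and KO 5 and KO 6 lay within the WT range. Means were 337 ± 75.4 in KO (SD, n = 6) and 271 ± 30.6 in WT (SD, n = 5). The log2 change was 0.28 ± 0.16 (SE; 95% interval -0.06 to 0.62; limma, unadjusted p = 0.099, adjusted p = 0.84). It was positive in all 27 alternatives (0.11 to 0.39) and called in none.

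Egfr encodes the receptor for EGF and TGF-alpha, which are mitogens for horizontal basal cells in culture. On its brightest probe set (1435888_at) the KO arrays ranged from 243.5 to 556 with a median of 446, and WT 1 to WT 5 read 349.5, 408, 244, 215 and 386. KO 1, KO 4 and KO 5 were above every WT array and no KO array was below them all. Means were 411 ± 134 in KO (SD, n = 6) and 320 ± 86.5 in WT (SD, n = 5), and the log2 change was 0.32 ± 0.23 (SE; limma, adjusted p = 0.92). It was 0.12 to 0.47 over 27 alternatives, none of which called it, and 0.19 without WT 4. The 6 tested Egfr probe sets did not share a sign. Changes were 0.15 ± 0.17 on 1424932_at and 0.01 ± 0.18 on 1460420_a_at, but -0.14 ± 0.22 on 1432647_at, -0.09 ± 0.19 on 1451530_at and -0.72 ± 0.28 on 1454313_at (all SE). The last of these is dim, with signals of 40.2, 18.2, 17.5, 7.5, 5.3 and 47.5 on KO 1 to KO 6 against 43.6, 61.2, 32.7, 43.3 and 36.9 on WT 1 to WT 5, and KO 1 and KO 6 lay within the WT range (limma, unadjusted p = 0.018, adjusted p = 0.53). A further Egfr probe set (1457563_at) had a mean signal of 5.49, under the filter.

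**Figure D2:**
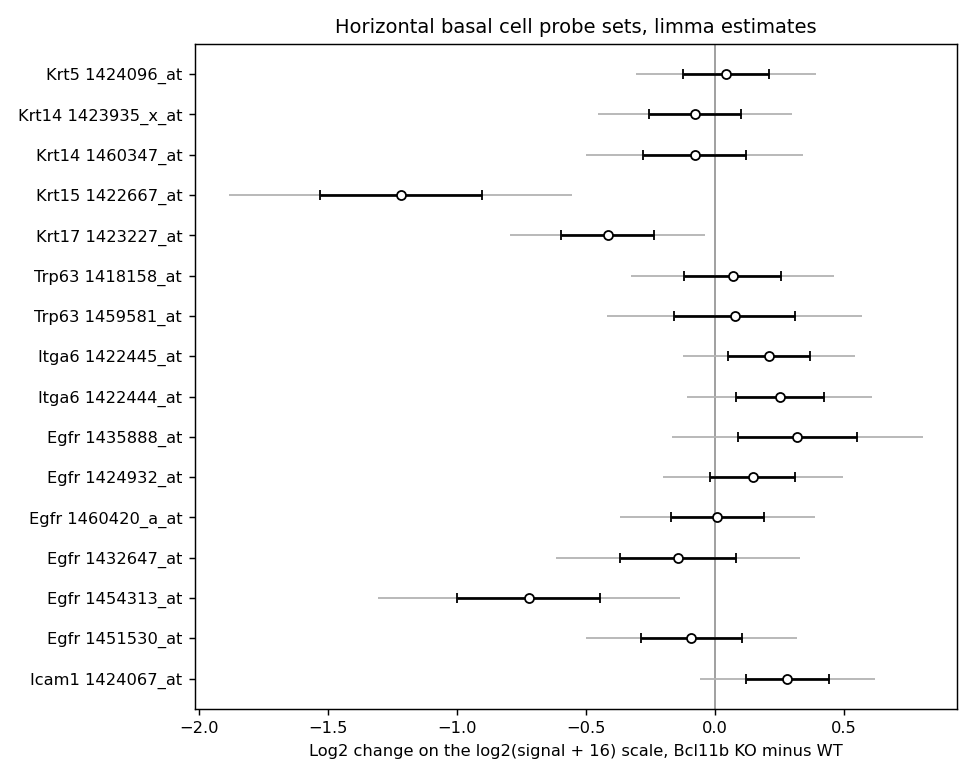
Log2 change, Bcl11b KO minus WT on the log2(signal + 16) scale, for the 16 tested probe sets; points are limma estimates, black bars ± 1 SE and grey lines 95% intervals. The intervals of Krt15 (-1.88 to -0.55), Krt17 (-0.79 to -0.04) and the dim Egfr probe set 1454313_at (-1.31 to -0.14) lie below 0, and the other 13 cross 0.

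The spread between preparations was set beside that of all genes. Relative to the mean of its own group, KO 3 was below for 7 of the 8 genes and the lowest of all 11 arrays for 4, whereas KO 4 was below for 0 of 8. Over all 15133 genes with a tested probe set, KO 3 was below its group mean for 77.0%. Among the WT arrays, WT 4 was below its group mean for all 8 genes and for 87.6% of all genes. KO 3 had the lowest summed signal of the KO arrays in 9 of the 17 companion lists, and WT 4 that of the WT arrays in 11 of 17. The coefficient of variation of Trp63 was 29.7% over the KO arrays and 10.5% over the WT arrays, and that of Krt17 was 28.4% over the KO arrays and 7.95% over the WT arrays. For Krt15 it was 39.0% in KO and 35.9% in WT. The medians over all 15133 genes were 21.4% in KO and 15.7% in WT, and 70.7% of genes had the larger value in KO. The summed signal of the 8 genes was 2708 to 4457 in KO and 2978 to 3942 in WT, with the lowest value on KO 3 and the highest on KO 4.

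**Figure D3:**
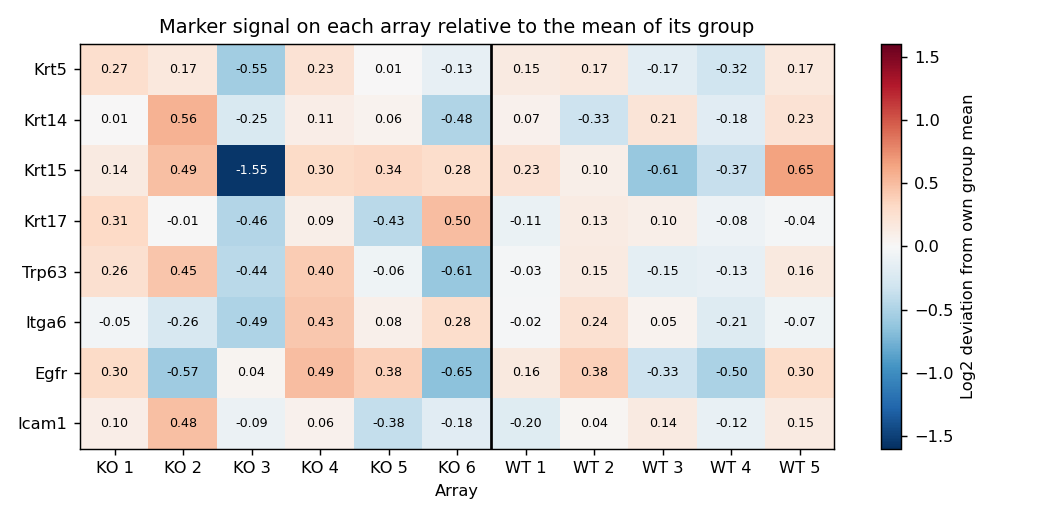
Deviation of each array from the mean of its own group (log2 scale; red above, blue below) for the brightest probe set of each gene, KO arrays left of the line and WT arrays right of it. KO 3 has the most negative deviation for Krt5 (-0.55), Krt15 (-1.55), Krt17 (-0.46) and Itga6 (-0.49), and KO 6 for Trp63 (-0.61), Krt14 (-0.48) and Egfr (-0.65). By signal itself the lowest Egfr array is WT 4.

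After the group means were removed, the 28 pairs of the 8 genes had a median Pearson r of 0.38 over the 11 arrays, and 23 of the 28 were positive. No pair passed after adjustment. Krt5 and Trp63 had r = 0.78 (exact permutation within groups, p = 0.0062, adjusted p = 0.16 over 28 pairs) and Spearman rho = 0.87 (exact permutation, p = 0.0036, adjusted p = 0.10). Without WT 4 and KO 3, the arrays farthest from the median of Krt5, r was 0.83. Within the 6 arrays of lower poly-A signal, which include WT 4 and KO 3, it was 0.93. KO 3 and KO 6, the KO females, were below the KO mean for both genes. Of the 15132 other genes 3.94% had an r to Krt5 at least as high as Trp63 had. Krt5 and Krt15 had r = 0.85 (exact permutation, p = 0.012, adjusted p = 0.16) and rho = 0.62 (exact permutation, p = 0.064, adjusted p = 0.38), but r was 0.54 without WT 4 and KO 3, so this relation rests largely on those arrays. Within the arrays of lower poly-A signal, which hold both, r for Krt5 and Krt15 was 0.94. Krt14 and Trp63 had r = 0.70 (exact permutation, p = 0.034, adjusted p = 0.32) and rho = 0.60 (exact permutation, p = 0.060, adjusted p = 0.38), and r was 0.32 without KO 2 and KO 6. Within the arrays of lower poly-A signal r for Krt14 and Trp63 was 0.79. The set of higher poly-A signal holds 5 arrays, and no correlation was computed over fewer than 6.

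The genes whose array-to-array pattern was most like the mean of Krt5, Krt14 and Trp63 (Pearson r after removal of group means, 11 arrays, 15125 genes, given as a description) were Tmprss2, an epithelial membrane serine protease (0.96), Lrch1 (0.95), Col17a1, the transmembrane collagen of hemidesmosomes (0.94), Mapk9, a JNK kinase (0.94), Jak2, a cytokine receptor kinase (0.93), Ppip5k1, an inositol pyrophosphate kinase (0.93), Cdkl2 (0.92), Crot, a peroxisomal acyltransferase (0.92), Ak7, an adenylate kinase of motile cilia (0.92), and Gm4285 (0.92). Their log2 changes lay between -0.34 (Gm4285) and 0.29 (Mapk9), and none was called. The arrays share dissection, scaling and amplification, which such likeness also reads. Among the companion lists the median r to the same mean was 0.53 for 22 p63 and epithelial target genes, 0.59 for 11 ciliated cell genes, 0.50 for 12 secretory and gland genes, 0.15 for 13 hemidesmosome and basal lamina genes and -0.41 for 10 ensheathing glia genes, against 0.22 over all genes.

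The anchoring structures of these cells were covered by 13 tested genes of hemidesmosomes and the basal lamina. None was called in either direction (limma, 3 at an unadjusted p under 0.05). Of the estimates 12 of 13 were positive, beside 20343 of 33662 over all tested probe sets, and the median log2 change of the 13 was 0.12. With scaling on spiked hybridization controls 4 of 13 were positive and the median was -0.06. Nid1, a linker of laminin and collagen IV, had mean signals of 2972 in KO and 2741 in WT, and Cd151, a tetraspanin partner of integrins, had 2518 in KO and 2316 in WT. Named after their values were seen, the 3 at an unadjusted p under 0.05 were the plakin gene Dst (0.49 ± 0.23), the laminin gene Lama3 (0.48 ± 0.16) and the laminin gene Lama5 (0.46 ± 0.19; log2 change ± SE). Itgb4, which encodes the partner of integrin alpha 6, had a change of 0.36 ± 0.21 (SE; limma, adjusted p = 0.85).

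Of 22 tested p63 and epithelial target genes, 0 rose and 0 fell (limma, 3 at an unadjusted p under 0.05), and the median log2 change was 0.03. Dsp, the desmosomal plakin, had mean signals of 3309 in KO and 2800 in WT, a change of 0.25 ± 0.11 (SE; limma, adjusted p = 0.70). Esrp1, an epithelial splicing factor, had 2364 in KO and 2360 in WT, a change of -0.02 ± 0.16 (SE). Named after its values were seen, Cldn1, a tight junction claudin, read 166, 289, 159.8, 252, 331 and 185 on KO 1 to KO 6 and 124, 135, 82.6, 79.5 and 150.0 on WT 1 to WT 5. Every KO array was above every WT array for Cldn1, with a change of 0.91 ± 0.21 (SE; limma, adjusted p = 0.083), which passed with each array scaled on its median or with quantile normalization, as the 1 call of this list. Sfn, also named after its values were seen, encodes 14-3-3 sigma and had means of 18.2 in KO and 39.3 in WT (log2 change -0.72 ± 0.25, SE; limma, adjusted p = 0.42).

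Among 15 other genes of basal and progenitor cells 1 rose and 0 fell (limma, 4 at an unadjusted p under 0.05), with a median log2 change of 0.14. Over all tested probe sets 0.455% were called and 6.92% had an unadjusted p under 0.05 (limma). The list was chosen with earlier results of these data known, and its genes are not particular to basal cells. The gene that rose was Cebpd, a C/EBP transcription factor of acute phase and stress responses. It read 2904, 2040, 3093, 2650.0, 2229 and 2190.0 on KO 1 to KO 6, against 1361, 979, 1094, 1378.5 and 870.3 on WT 1 to WT 5. All KO arrays were above all WT arrays, and the log2 change was 1.14 ± 0.15 (SE; limma, adjusted p = 0.00051). It passed in 26 of 27 alternatives, with changes of 0.97 to 1.26, and missed the threshold within the arrays of higher poly-A signal (limma, adjusted p = 0.078). Sox2, a factor of sustentacular and basal progenitors, had means of 3206 in KO and 3049 in WT (log2 change 0.06 ± 0.14, SE), and Meg3, a long noncoding RNA, had 3348 in KO and 3466 in WT (-0.05 ± 0.16, SE). The other 3 genes at an unadjusted p under 0.05, named after their values were seen, had higher means in KO. Tsc22d3, a glucocorticoid-induced leucine zipper gene, was at 1018 to 2569 in KO and 590.3 to 781 in WT, without overlap (0.92 ± 0.20, SE; limma, adjusted p = 0.058). Hes5, a Notch target, had means of 97.6 in KO and 50.4 in WT (0.79 ± 0.19, SE; limma, adjusted p = 0.096), and the chemokine gene Cxcl14 had 137 in KO and 84.2 in WT (0.60 ± 0.17, SE; limma, adjusted p = 0.22).

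The pathways around Egfr and Icam1 gave no call. Of 17 tested ErbB receptor, ligand and feedback genes 0 passed (limma, 0 at an unadjusted p under 0.05). Positive estimates numbered 15, with a median of 0.13 over the 17, beside 20343 of 33662 over all tested probe sets. With scaling on spiked hybridization controls 7 of the 17 were positive. Errfi1, a feedback inhibitor of EGFR, had mean signals of 2797 in KO and 2199 in WT (log2 change 0.31 ± 0.16, SE), and Adam10, a sheddase of EGFR ligands, had 2806 in KO and 2745 in WT (0.01 ± 0.16, SE). Of 10 partners and inducers of ICAM1 0 passed (limma, 3 at an unadjusted p under 0.05), with a median of 0.05. These 3 were Nfkbia and, named after their values were seen, the adhesion molecule genes Icam5 and Vcam1. Icam5 was dim, with means of 44.35 in KO and 16.7 in WT (log2 change 0.92 ± 0.30, SE; limma, adjusted p = 0.34). Vcam1 had 322 in KO and 201 in WT (0.60 ± 0.21, SE; limma, adjusted p = 0.42). Nfkbia, the NF-kappaB inhibitor gene, had 7854 in KO and 6136 in WT (0.34 ± 0.10, SE; limma, adjusted p = 0.21), and Ezr, which encodes the membrane linker ezrin, had 3804 in both groups.

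**Figure D4:**
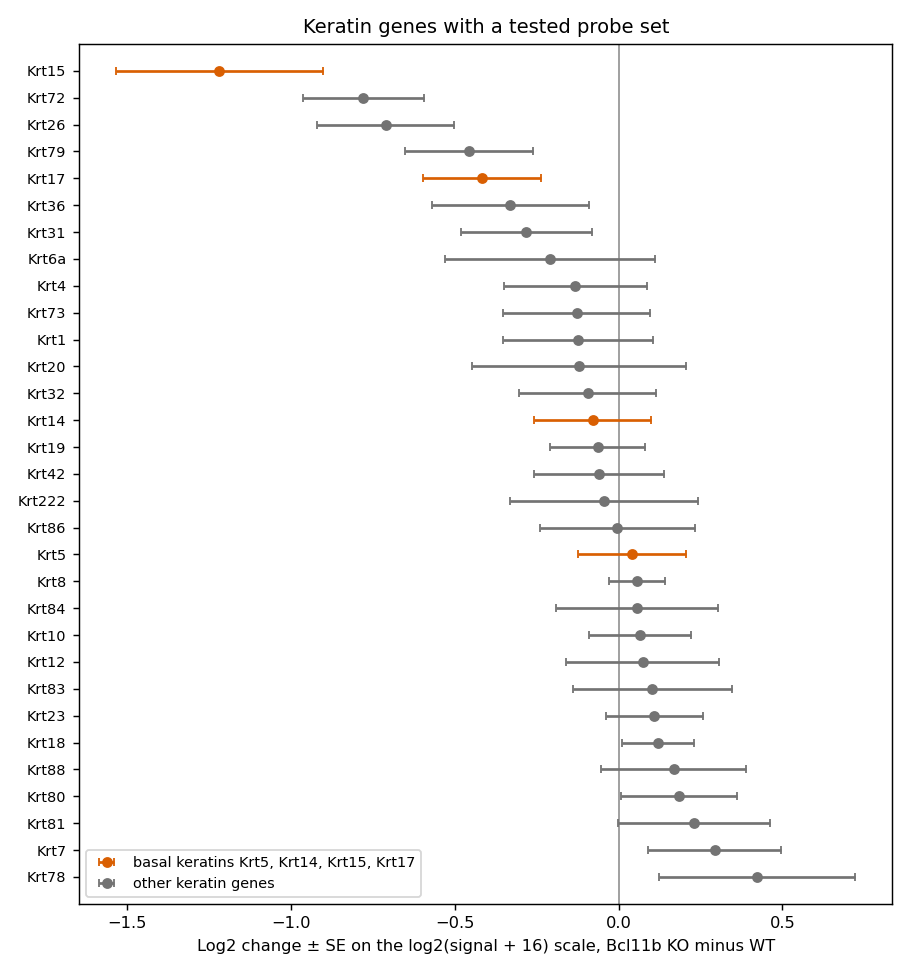
Log2 change, Bcl11b KO minus WT on the log2(signal + 16) scale, for the brightest tested probe set of each of 31 keratin genes, ordered from low to high; points are limma estimates and bars ± 1 SE, with the 4 basal keratins in orange. Krt15 (-1.22) is the lowest and Krt17 (-0.42) is among the 5 lowest, while Krt14 (-0.08) and Krt5 (0.04) lie in the middle.

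The basal keratins were also set among the other keratin genes, a grouping made after values were seen. Of 48 keratin genes on the array 31 had a tested probe set, and 0 passed (limma, 5 at an unadjusted p under 0.05). The KO and WT arrays did not overlap for 2 of the 31. Over all tested probe sets 6.92% had an unadjusted p under 0.05 (limma) and 1.29% did not overlap. Because the grouping followed the values, these counts are descriptions only. Estimates were positive for 13 and negative for 18, with a median of -0.06. The 6 simple epithelial keratins, which mark luminal cells, had 0 calls (limma, 0 at an unadjusted p under 0.05) and a median change of 0.08. Krt18 had mean signals of 6706 in KO and 6099 in WT, with a log2 change of 0.12 ± 0.11 (SE), and Krt8 had 6236 in KO and 5981 in WT, with 0.06 ± 0.08 (SE). Krt19, which neighbours Krt15 in the type I cluster (on the other side lies Krt13), had 1765 in KO and 1823 in WT, a change of -0.06 ± 0.15 (SE). Krt72, a keratin of the inner root sheath of hair, was the only other keratin gene whose arrays did not overlap (35.5 to 63.5 in KO and 78.7 to 138.6 in WT; log2 change -0.78 ± 0.18, SE; limma, adjusted p = 0.083). Krt26, another inner root sheath keratin, had means of 27.0 in KO and 54.2 in WT.

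Other cells that make the same keratins or adhesion molecules were followed by marker lists, given here beside the results above. Of 6 tested suprabasal and stratified keratins 0 passed (limma, 0 at an unadjusted p under 0.05). Their median change was -0.03 and their summed signal 601 to 861 in KO and 609 to 766 in WT, and the other 7 of the 13 listed genes were under the filter. Krt10 had means of 364 in KO and 350.0 in WT, and Krt80 had 138 in KO and 122 in WT. Of 10 tested cornified squamous genes 0 rose and 1 fell, Sprr1a, a cornified envelope precursor (limma, 2 at an unadjusted p under 0.05). Sprr1a read 99.9, 97.0, 127, 116, 112 and 61.1 on KO 1 to KO 6, against 170.2, 191, 246, 162 and 212 on WT 1 to WT 5. All KO arrays were below all WT arrays, as for Krt15, and the change was -0.86 ± 0.18 (SE; limma, adjusted p = 0.038). It passed in 11 of 27 alternatives, from -1.01 to -0.65 in all. The other gene at an unadjusted p under 0.05, named after its values were seen, was Sprr3 of the same family, with means of 45.2 in KO and 69.4 in WT (-0.52 ± 0.21, SE; limma, adjusted p = 0.57). The list as a whole had a median change of 0.02 and a summed signal of 2468 to 3674.5 in KO and 2918 to 3563 in WT, and its part in the Krt15 value was not tested.

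The remaining lists describe the rest of the tissue. Of 11 mature OSN markers 0 rose and 4 fell (Stoml3, Gnal, Gng13 and Cnga4), with a median change of -0.46 and a summed signal of 8014 to 10894 in KO and 13036 to 17421 in WT. With median scaling 5 fell, and with quantile or spiked-control scaling 6. Stoml3 passed in all 27 alternatives, whereas Gnal, Gng13 and Cnga4 lost the call with the replicate block and within each poly-A set. Of 12 sustentacular genes 1 fell, Umodl1, which OSNs also make and which passed in 17 of 27 alternatives. Of 5 erythroid genes Hbb-y and Hbb-bh1 rose. Hbb-y passed in all 27 alternatives. Hbb-bh1 passed in 25 of 26 and missed the threshold within the arrays of higher poly-A signal (limma, adjusted p = 0.62). No gene passed among 11 ciliated, 12 secretory and gland, 12 endothelial, 13 leukocyte, 12 mesenchyme and 10 ensheathing glia genes (limma, 1, 3, 0, 1, 3 and 3 at an unadjusted p under 0.05), and their median changes were 0.05, 0.08, 0.15, 0.15, 0.16 and 0.19. For Icam1 and Itga6, whose estimates were positive, the summed signal of the endothelial genes was 4874 to 6820 in KO and 4676 to 6467 in WT, and that of the leukocyte genes was 8191 to 10825 in KO and 7951 to 9564 in WT. The part of these cells in the values of the 8 genes was not tested.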

How the data were processed

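RNA of 11 whole MOE preparations was amplified in 2 cycles from nanogram amounts of total RNA and hybridized to Mouse Genome 430 2.0 arrays. The deposited values are linear intensities, 1 per probe set and array, which the authors scaled to GAPDH in GCOS, so that its probe set reads 10000 on every array. Of 45101 probe sets 34958 had 1 symbol, 932 several and 9211 none. Control probe sets (64) and those with a mean signal under 20 were left out. KO and WT were compared with limma 3.58.1 (R 4.3.3; lmFit, eBayes with a trend) on log2(signal + 16), which understates changes of dim probe sets, with Benjamini-Hochberg adjustment over all tested probe sets. A gene with several probe sets was represented by the brightest tested one in lists and correlations.

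The study's methods name GeneSpring for the significance of array differences but not which test it ran, so limma was used. The number of arrays limits the precision. In simulated data for this comparison on 33662 probe sets, 94.1% of 68 changes of 2, 68.2% of 66 changes of 1 and 4.55% of 66 changes of 0.5 (log2) were recovered, with 2 false calls. The simulated noise was independent between probe sets, whereas whole arrays shift together here, so these rates may not hold for the real arrays. Genes of the lists were named if called, or else as the 2 brightest, and the text says where a gene was chosen after its values were seen. The 8 genes, the lists and the rules were chosen with earlier results of these data known. Poly-A sets were split at the largest gap in the mean signal of 8 spiked control probe sets and are not a labelled batch.

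Alternatives were median, quantile and spiked-control scaling, pseudocounts of 1 and 64, no filter or a filter of 100, eBayes without trend, sex as a covariate or males only, array weights, a replicate block, poly-A set as a covariate and within sets, and leaving out each array. Estimates with the replicate block were those of the setting without KO 6, the KO array with no WT array of its number. Leaving out KO 2 and KO 3 together was added after the data were seen. Correlations used the 86400 within-group permutations (scipy 1.17.1).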

Additional observations from a re-analysis of the deposited data

Results flagged for a closer look

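Within the 6 KO arrays, 3 probe sets of the 8 genes had 1 array far from the others (gap to the nearest array beyond the 95% critical value of Dixon's test), out of 32 groups of arrays checked, where chance alone marks about 1 group in 20. Krt15 (1422667_at) was 30.6 on KO 3, and the next lowest KO array was at 135.0. The dim Egfr probe set 1451530_at was 14.0 on KO 2, with the next at 29.8, and the dim Trp63 probe set 1459581_at was 9.5 on KO 2, with the next at 23.6. KO 3 and KO 2 were the arrays of highest GAPDH 3'/5' ratio (2.70 and 2.42), and the part of RNA quality in these values was not tested.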

How the results depend on the processing

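Over the 27 alternatives the log2 changes of the tested probe sets of the 8 genes kept their sign and their side of the threshold in 384 of 428 cases. Krt15 passed in 3 cases, and 41 estimates near 0 changed sign, none of them called. With scaling on spiked hybridization controls, which lowered the median of all probe sets from 0.05 to -0.11, signs turned for Trp63 1418158_at (-0.10) and 1459581_at (-0.026), Krt5 (-0.13), and Egfr 1424932_at (-0.017) and 1460420_a_at (-0.15). Median scaling turned Krt5 (-0.018) and Egfr 1460420_a_at (-0.046), and quantile normalization did the same (-0.022 and -0.047). With males only or sex as a covariate, Krt14 became 0.10 on both probe sets and Trp63 1459581_at -0.0015. These 2 settings give the same estimates, because no WT array is from a female. Within the arrays of higher poly-A signal Trp63 1418158_at was -0.082, Krt5 -0.079 and Egfr 1460420_a_at -0.15, which was -0.030 with poly-A set as a covariate. Without KO 2 and KO 3 Egfr 1451530_at was 0.044. The cause was not tested.

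Leaving out 1 array at a time gave ranges of -1.37 to -0.91 for Krt15, -0.52 to -0.32 for Krt17, -0.038 to 0.15 for Krt5, -0.19 to 0.018 and -0.18 to 0.032 for Krt14 (1423935_x_at and 1460347_at), -0.022 to 0.19 and -0.034 to 0.22 for Trp63 (1418158_at and 1459581_at), and -0.15 to 0.024 and -0.12 to 0.12 for Egfr (1451530_at and 1460420_a_at).

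The count of probe sets of the 8 genes called was 0, and 1 (Krt15) with spiked-control scaling, array weights or the replicate block. Over all probe sets 153 were called, against 293 with quantile normalization, 290 with spiked controls, 345 with array weights, 92 with the replicate block, 31 and 39 within the arrays of higher and lower poly-A signal, 284 without KO 2 and KO 3, and 85 to 213 with 1 array left out (85 without WT 3, 97 without WT 5). The share of calls higher in KO was 53.6%, against 42.8% with median scaling, 41.0% with quantile normalization and 20.3% with spiked controls. It was 62.7% with males only, 63.3% with sex as covariate, 65.2% with array weights, 67.4% with the replicate block, 71.8% without KO 2 and KO 3, 61.3% within the arrays of higher and 74.4% within those of lower poly-A signal, and 48.0% (without WT 4) to 66.1% (without WT 2) leaving out 1 array. Among the lists, the horizontal basal cell genes had 1 call with spiked controls, the p63 targets 1 with median scaling and 1 with quantile normalization, and the other basal and progenitor genes 2 with quantile normalization. Replicate numbers of KO and WT arrays did not pair the samples: same-numbered deviations correlated between -0.28 and 0.0085, and 0 of 5 KO arrays matched best with their own number. With the replicate block Krt14 1423935_x_at was 0.018, Egfr 1460420_a_at -0.012 and Krt15 -1.27. These values equal the estimates without KO 6. Probe sets near a signal of 20 are limited by background.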
